A study of Mus musculus with 6 samples.

Results

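The 9 genes described here encode subunits of the transcription factor NF-kB and proteins listed as its feedback inhibitors, measured in mouse acute myeloid leukaemia (AML) cells. A list of 10 gene symbols was looked up in the array's annotation, keeping rows that name a single gene, and the brightest row where a gene had several. This gave 9 of the 10 among 30142 genes, each on 1 row. The subunit genes were Nfkb2, Rel, Rela and Relb. The genes listed as inhibitors were Nfkbia, Nfkbie, Nfkbiz, Tnfaip3 and Bcl3. Inhibitor is the list's name here and does not state how the nuclear proteins of Nfkbiz and Bcl3 act. Nfkb1 was not analysed here. All 6 arrays hold leukaemia driven by the MLL-AF9 oncogene, a fusion of a chromatin regulator with an elongation factor. On 3 control arrays the cells came from littermate controls, and on 3 Dnmt3b-KO arrays they lacked Dnmt3b, the gene of an enzyme that methylates DNA at new sites. The cells had been sorted out of recipients' marrow once the disease had reached its end stage. No source used here gives the sorting markers, the deleted exons or the number of mice behind each array, so the p-values measure the spread between these arrays, which may be technical.

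NF-kB proteins act as pairs that wait in the cytoplasm, bound by inhibitors of the IkB family. Signals from receptors for tumour necrosis factor, interleukin-1 or microbial products activate the IKK kinases, which mark IkB for destruction, and the freed pairs enter the nucleus and switch on inflammatory and survival genes. Among their targets are their own inhibitors, so the response shuts itself off, and RNA levels of these inhibitors are often read as a trace of recent pathway activity. A slower branch processes the Nfkb2 product into a subunit that pairs with RelB. NF-kB activity has been described in human AML stem cells.

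NF-kB acts on its targets by binding short kappaB sites in DNA. RefSeq promoter entries (GRCm38.p6) were matched by symbol for 7 of the 10 genes, with several start sites for Nfkb2 and Tnfaip3. The entries missing were Nfkb1, Relb and Nfkbiz. The 250 bases before each start were searched on both strands for the kappaB consensus, the 10-base site that NF-kB pairs bind. It was present for 5 of these 7 genes, Nfkb2, Rel, Nfkbia, Nfkbie and Tnfaip3, in 7 of the 10 windows of the 7 genes. A match was present for 4.46% of all genes with an entry, and in 3.9% of all 32851 windows of the same length. The windows were not matched for G or C content, and the list was chosen for NF-kB feedback. No enrichment is therefore read from these shares. Rela and Bcl3 had no match in this window. The windows of the 4 genes whose stretch lies outside their own gene model are shown whole, with matched bases in capitals and overlapping matches joined, because such sites are the known route of NF-kB feedback.
Rel, chr11:23770970-23771219, minus strand: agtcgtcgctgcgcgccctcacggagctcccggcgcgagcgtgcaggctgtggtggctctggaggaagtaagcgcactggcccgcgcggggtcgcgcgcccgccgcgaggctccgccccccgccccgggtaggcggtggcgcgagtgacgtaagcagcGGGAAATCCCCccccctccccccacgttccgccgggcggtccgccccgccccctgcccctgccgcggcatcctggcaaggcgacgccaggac
Nfkbia, chr12:55492648-55492897, minus strand: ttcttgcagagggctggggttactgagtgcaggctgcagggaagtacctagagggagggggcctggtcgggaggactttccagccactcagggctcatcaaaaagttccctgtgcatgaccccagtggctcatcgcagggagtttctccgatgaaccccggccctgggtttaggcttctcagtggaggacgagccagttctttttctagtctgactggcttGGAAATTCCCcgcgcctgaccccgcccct
Nfkbie, chr17:45555450-45555699, plus strand: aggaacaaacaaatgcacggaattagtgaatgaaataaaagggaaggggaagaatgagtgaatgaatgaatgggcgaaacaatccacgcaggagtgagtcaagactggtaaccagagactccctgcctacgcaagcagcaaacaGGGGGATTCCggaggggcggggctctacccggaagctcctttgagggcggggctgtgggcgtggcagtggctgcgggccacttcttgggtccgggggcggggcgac
Tnfaip3, chr10:19015411-19015660, minus strand: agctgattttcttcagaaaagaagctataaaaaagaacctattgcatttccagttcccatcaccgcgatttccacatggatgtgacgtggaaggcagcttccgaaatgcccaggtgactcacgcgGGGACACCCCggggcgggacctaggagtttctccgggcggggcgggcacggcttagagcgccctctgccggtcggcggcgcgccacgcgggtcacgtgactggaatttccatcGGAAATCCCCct
For Nfkb2, 30 bases around the joined matches 29 to 39 bases before the first of its listed starts are shown, and a further match lay 2 to 11 bases before that start.
Nfkb2, chr19:46304689-46304718, plus strand: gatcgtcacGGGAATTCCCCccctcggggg
The joined match of Rel lay 82 to 92 bases before its start, that of Nfkbia 20 to 29 bases, and that of Nfkbie 97 to 106 bases. Tnfaip3 held separate matches at 3 to 12 and at 116 to 125 bases before the start. The stretch before Rel was also rich in CpG, the dinucleotide that DNA methyltransferases act on, with 37 CpG against a median of 6 over all windows. Its bases were 77.6% G or C, against a median of 52.4%. The CpG count was 8 for Nfkbia, 13 for Nfkbie, 23 for Rela and 19 for Bcl3. It was 21, 19 and 14 in the 3 windows of Nfkb2, and 22 in the Tnfaip3 window shown but 6 in the window of its other start. No methylation was measured here, and a match in a sequence is a description of its letters and not of binding.

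The arrays differed in ways that touch these genes. Across all genes Dnmt3b-KO replicate 3 correlated with the other 5 arrays at 0.981 to 0.982, against 0.998 to 0.999 among those 5. Of 28 monocyte and macrophage markers, 16 were higher on it than on Dnmt3b-KO replicates 1 and 2 by more than 1 log2 unit and 3 were lower by more than 1. The mean log2 level of this marker list was 7.19 to 7.33 in control, 7.36 and 7.21 on Dnmt3b-KO replicates 1 and 2, and 10.09 on replicate 3. The granule genes Mpo and Elane, markers of the labelled myeloid cells, stood at 17.42 ± 0.05 and 17.92 ± 0.07 in control (SD, n = 3). The mean level of 9 myeloid progenitor markers was 12.21 on Dnmt3b-KO replicate 3, against 13.29 to 13.39 on the others. A second list held 11 immediate early and heat shock genes that respond to handling. Its mean level was 8.58 to 9.07 in control and 9.16, 9.68 and 9.53 on Dnmt3b-KO replicates 1, 2 and 3. The replicate 3 mean includes Atf3, which measured 8.94 there and at most 4.80 elsewhere. The list's median difference between replicate 3 and replicates 1 and 2 was -0.22. In bulk RNA, more cells of one type and more RNA per cell cannot be told apart. Differences are therefore given over all 6 arrays, over 5 arrays without Dnmt3b-KO replicate 3, and for that array alone.

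Of the 9 genes, 1 passed the threshold in the 5-array comparison and 0 in the 6-array comparison. Rel rose over 5 arrays and lay above every control on the third Dnmt3b-KO array too. All 5 inhibitor genes had 5-array differences above 0, as did 13947 of all 30142 genes, and none of the 5 passed. Nfkbie turned to -0.056 without Dnmt3b-KO replicate 2. No test of the 5 genes together was run. Rela, Nfkb2 and Relb had 5-array differences below 0 that did not pass either. Over 30142 genes limma called 0% with 6 arrays and 1.69% with 5 arrays (0.939% higher and 0.75% lower in Dnmt3b-KO) at an adjusted p under 0.05. All 9 genes lay above the median gene level. With the fit limited to genes above that level, limma called 1003 genes over 5 arrays, against 509 over all genes. The share among genes of such levels is thus larger. At an unadjusted p under 0.05, 2 of the 9 genes (Rel and Bcl3) stood over 6 arrays, against 1920 of all genes, or 6.37%. Over 5 arrays Rel, Nfkbiz and Tnfaip3 did so (limma, unadjusted p = 0.000193, 0.0172 and 0.0472), against 15.5% of all genes. Bcl3 did not (limma, unadjusted p = 0.0554). The median difference of the 9 genes was 0.20 over 6 arrays and 0.15 over 5 arrays, against -0.0036 and -0.0096 over all genes.

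**Figure D1:**
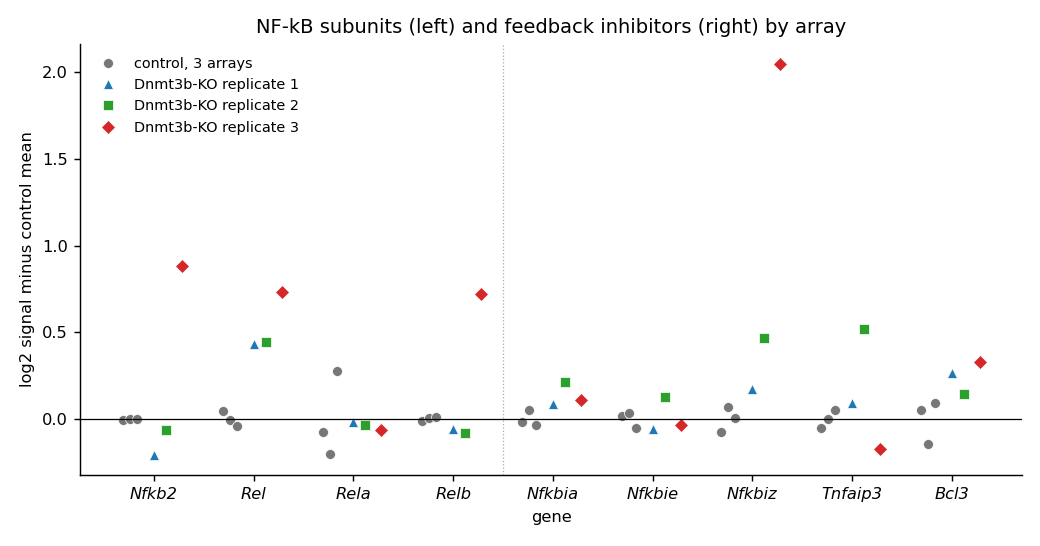
Log2 signal of each gene on each array minus the mean of the 3 control arrays (y axis), for the 4 subunit genes left of the dotted line and the 5 inhibitor genes right of it. Circles are the control arrays and the other symbols the single Dnmt3b-KO arrays. Rel lies above its controls on all 3 Dnmt3b-KO arrays, Nfkb2 and Relb stand high on replicate 3 only, and Nfkbiz is highest there, 2.05 above its control mean.

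Among the subunits, Rel encodes c-Rel, an activating subunit prominent in blood cells. It measured 11.43, 11.38 and 11.34 on control replicates 1, 2 and 3 and 11.82, 11.83 and 12.12 on Dnmt3b-KO replicates 1, 2 and 3 on the log2 scale. Every Dnmt3b-KO array lay above every control, and the gap between the groups exceeded the spread within the controls. Over 5 arrays Rel rose by 0.44 ± 0.06 (SE; limma, adjusted p = 0.0304; 95% interval 0.30 to 0.57). Over 6 arrays the difference was 0.54 ± 0.10 (limma, adjusted p = 0.566). The third Dnmt3b-KO array stood 0.30 above the mean of the other two. The 5-array call ended when any further array was left out, with differences of 0.42 to 0.46 and adjusted p from 0.0712 to 0.2 (limma). It also ended with the replicate number as a block (0.42, adjusted p = 0.108) and without empirical Bayes (adjusted p = 0.201).

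Rela encodes p65, the main activating subunit of the rapid branch. It measured 13.17, 13.04 and 13.52 in control and 13.23, 13.21 and 13.18 in Dnmt3b-KO. All 3 Dnmt3b-KO values lay inside the control range, and the control arrays spread more than the Dnmt3b-KO arrays did. The 6-array difference was -0.04 ± 0.13 (limma, adjusted p = 0.954), with an interval from -0.36 to 0.28 that leaves room for a change in either direction. The 5-array difference of -0.03 turned to 0.11 without control replicate 3.

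Nfkb2 and Relb encode the pair of the slower branch. Nfkb2 measured 5.36, 5.37 and 5.37 in control, 5.15 and 5.30 on Dnmt3b-KO replicates 1 and 2, and 6.25 on replicate 3. Relb measured 4.82, 4.84 and 4.84 in control, 4.78 and 4.75 on Dnmt3b-KO replicates 1 and 2, and 5.56 on replicate 3. Both genes were below every control on the first Dnmt3b-KO arrays and above every other array on the third. The 5-array differences were -0.14 ± 0.06 for Nfkb2 and -0.07 ± 0.05 for Relb (limma, adjusted p = 0.388 and 0.642). With the third array included they turned to 0.20 ± 0.29 and 0.20 ± 0.22 (limma, adjusted p = 0.878 and 0.85). The 23 background rows of the arrays ran from 2.30 to 5.62, and the highest of them on each array lay between 4.96 and 5.62. Relb on 5 arrays (all but Dnmt3b-KO replicate 3) and Nfkb2 on 3 arrays (control replicate 2 and Dnmt3b-KO replicates 1 and 2) lay at or below their own array's highest background row, so the size of their differences is not exact.

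Nfkbia encodes IkB-alpha, the inhibitor that NF-kB resynthesises first and whose promoter match is shown above. It measured 11.66, 11.73 and 11.64 in control and 11.76, 11.89 and 11.79 in Dnmt3b-KO. Every Dnmt3b-KO array lay above every control, by a small margin that depended on the scaling. With the arrays centred on their medians, Dnmt3b-KO replicate 3 lay below control replicate 2. The difference was 0.14 ± 0.06 over 6 arrays and 0.15 ± 0.06 over 5 arrays (limma, adjusted p = 0.82 and 0.339). Dnmt3b-KO replicate 3, which stood apart in other genes, lay between replicates 1 and 2 for Nfkbia.

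Nfkbie encodes IkB-epsilon, a later-acting inhibitor. It measured 6.80, 6.81 and 6.73 in control and 6.72, 6.91 and 6.75 in Dnmt3b-KO, with the groups interleaved. The 6-array difference was 0.01 ± 0.07 (limma, adjusted p = 0.977; interval -0.16 to 0.19), and with the arrays centred on their medians its sign turned.

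Nfkbiz encodes IkB-zeta, a nuclear IkB protein that acts on a second wave of target genes. It measured 5.65, 5.80 and 5.73 in control, 5.90 and 6.20 on Dnmt3b-KO replicates 1 and 2, and 7.78 on replicate 3. The groups did not overlap, and the third Dnmt3b-KO array stood far above the other arrays. The difference was 0.32 ± 0.10 over 5 arrays (limma, adjusted p = 0.197) and 0.90 ± 0.49 over 6 (limma, adjusted p = 0.829). Without Dnmt3b-KO replicate 2 the 5-array difference was 0.17. Every value lay above its own array's highest background row, with the smallest margin on control replicate 2 (5.80 against 5.62).

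Tnfaip3 encodes A20, a ubiquitin-editing enzyme that cuts off signalling from the receptors. It measured 7.69, 7.74 and 7.80 in control, 7.84 and 8.27 on Dnmt3b-KO replicates 1 and 2, and 7.57 on replicate 3. Both of the first Dnmt3b-KO arrays lay above every control, while the third lay below all of the other arrays. The difference was 0.31 ± 0.12 over 5 arrays (limma, adjusted p = 0.315) and 0.15 ± 0.18 over 6 (limma, adjusted p = 0.855). Without Dnmt3b-KO replicate 2 the 6-array difference was -0.039 and the 5-array difference 0.094; without replicate 1 the latter was 0.52.

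Bcl3 encodes a nuclear IkB protein that pairs with the Nfkb1 and Nfkb2 products. It measured 5.61, 5.42 and 5.66 in control and 5.83, 5.71 and 5.89 in Dnmt3b-KO. The groups did not overlap, although the gap between them was smaller than the range of the controls. The difference was 0.25 ± 0.09 over 6 arrays and 0.21 ± 0.09 over 5 (limma, adjusted p = 0.747 and 0.338). Control replicate 2 lay below its own array's highest background row, and the other arrays lay above theirs.

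**Figure D2:**
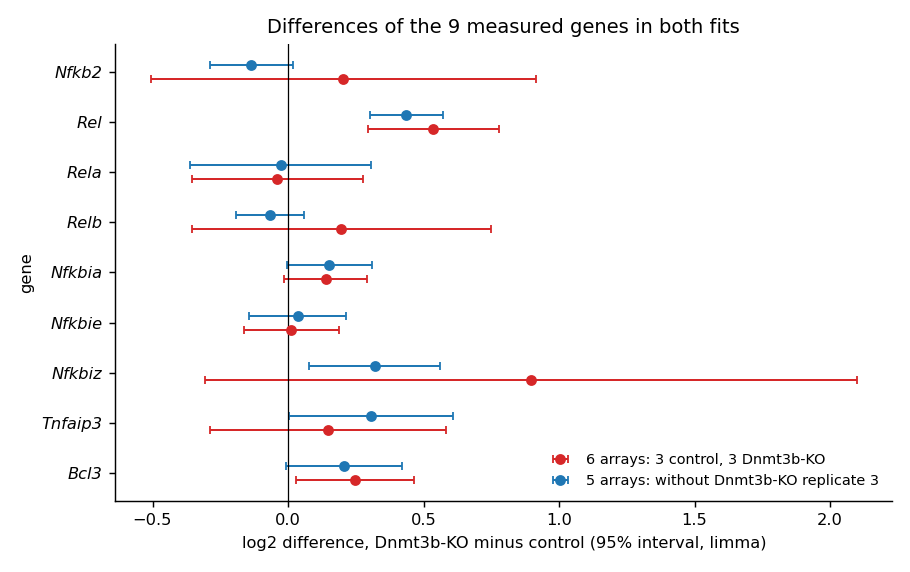
Log2 difference between Dnmt3b-KO and control for each gene (x axis) with its 95% interval from limma, over all 6 arrays (red) and over 5 arrays without Dnmt3b-KO replicate 3 (blue). The Rel interval lies above 0 in both, from 0.29 to 0.78 over 6 arrays, and the Nfkb2, Relb and Nfkbiz intervals are much wider with the third array included.

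Over 6 arrays the groups did not overlap for 4 of the 9 genes, Rel, Nfkbia, Nfkbiz and Bcl3, all higher in Dnmt3b-KO. Over all genes this held for 14.9% in either direction and for 6.68% on the higher side. Of the 4486 genes behind the first share, 2838 lay above the median gene level, as did all 9 genes. An exact permutation test of 3 arrays against 3 cannot give a two-sided p below 0.1. Without Dnmt3b-KO replicate 3 the count was 7 of 9, of which Nfkb2 and Relb were lower, against 32.5% of all genes. Dnmt3b-KO replicate 2 lay above replicate 1 for 6 of the 9 genes, with the widest gap for Tnfaip3. The share over all genes was not counted, so nothing is read from this count. The immediate early and heat shock list had its highest mean of the 6 arrays on Dnmt3b-KO replicate 2. Fosb, a member of that list, averaged 11.67 ± 0.57 over the controls (SD, n = 3) and measured 13.14, 14.03 and 12.59 in Dnmt3b-KO. Dusp1 of the same list measured 13.57 ± 0.53 in control and 15.03, 15.53 and 14.61 in Dnmt3b-KO. Of the 11 genes, 8 had groups that did not overlap over 6 arrays, 7 of them higher in Dnmt3b-KO, against 14.9% of all genes in either direction. The eighth was Hspa1a, the heat shock gene of the list, with a 6-array difference of -0.56. It lay at or below its array's highest background row on all 6 arrays. Atf3, 1 of the 7 higher genes, did so on the 5 arrays other than Dnmt3b-KO replicate 3. Egr1, Egr2 and Ier2, whose groups overlapped, had 6-array differences of -0.25, -0.03 and -0.21. Of the 11 genes 0 passed the threshold (limma) over 6 or over 5 arrays, against 0% and 1.69% of all genes. Over 6 arrays 7 stood at an unadjusted p under 0.05, against 6.37% of all genes. The part of these genes in the inhibitor values was not tested.

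**Figure D3:**
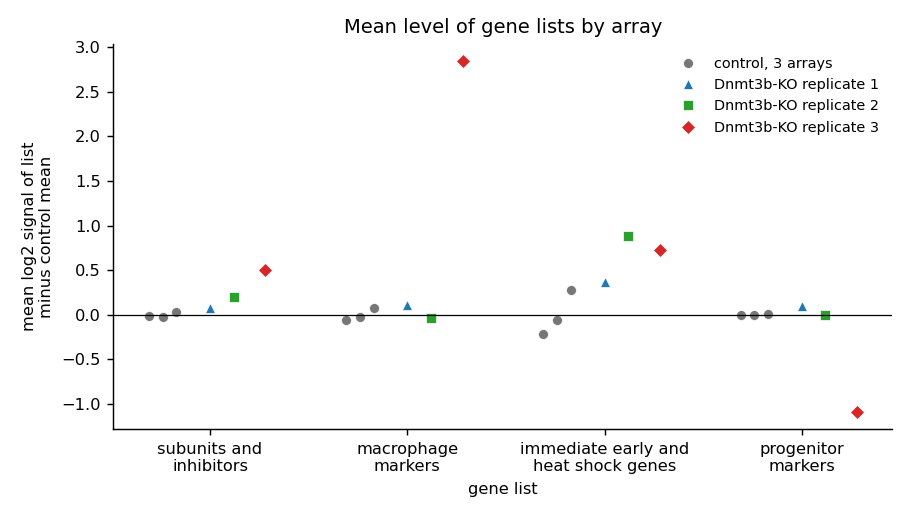
Mean log2 signal of 4 gene lists on each array, minus the mean of the 3 control arrays (y axis), for the 9 NF-kB genes, 28 macrophage markers, 11 immediate early and heat shock genes and 9 progenitor markers. The mean of the NF-kB genes stands 0.08, 0.19 and 0.51 above control on Dnmt3b-KO replicates 1, 2 and 3, with single genes on either side of 0. That of the immediate early and heat shock genes stands 0.36, 0.89 and 0.73 above control. The macrophage marker mean stands apart on replicate 3 alone, by 2.84, and the progenitor marker mean differs there by -1.09.

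Dnmt3b-KO replicate 3 was set against the mean of replicates 1 and 2 as a single array, with no test. Nfkbiz was higher there by 1.73, Nfkb2 by 1.02, Relb by 0.79 and Rel by 0.30, while Tnfaip3 differed by -0.48. Among the inhibitors this array was the highest of all for Nfkbiz and Bcl3 and the lowest for Tnfaip3. The Bcl3 difference was only 0.12, and it was 0.03 with the arrays centred, where Dnmt3b-KO replicate 1 was higher. A difference above 1 was reached by 2 of the 9 genes, against 4.03% of all genes. None was lower by more than 1, as 2.94% of all genes were. The Nfkb2 difference was 0.99 and 0.93 under repeated quantile normalization and median centring. This array lay above the other 5 for 5 of the 9 genes and below them for 1, against 33.9% and 31.3% of all genes. Rela, Nfkbia and Nfkbie differed by -0.04, -0.04 and -0.07, and the first pair turned to 0.11 and 0.02 under repeated quantile normalization. Macrophage markers such as Csf1r and Mrc1 were higher on this array by 4.59 and 7.54, while Cd163, Axl and Spic differed by -0.04, -0.0082 and -0.21. The part of such cells in the Nfkb2, Relb and Nfkbiz values was not tested.

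The rest of the pathway was read from lists of ligands, receptors, adaptors and kinases, other inhibitors and described targets. In the 5-array comparison 2 of 22 receptors and 1 of 39 targets rose, and no member of the lists of 11 ligands, 26 adaptors and kinases and 18 other inhibitors passed, against 1.69% of all genes in either direction and 0.939% on the higher side. The list medians over 5 arrays were -0.03 for ligands, 0.08 for receptors, 0.10 for adaptors and kinases, 0.02 for other inhibitors and -0.0042 for targets. Over 6 arrays 0 members of these lists passed (limma), and 0, 2, 3, 4 and 3 members in the same order stood at an unadjusted p under 0.05, against 6.37% of all genes.

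The receptors that rose belong to the Toll-like family. Tlr6 averaged 6.77 ± 0.15 over the controls (SD, n = 3) and stood at 7.81, 7.62 and 7.06 on Dnmt3b-KO replicates 1, 2 and 3, a 5-array rise of 0.95 ± 0.11 (SE; limma, adjusted p = 0.0204). Tlr1 measured 8.98 ± 0.12 in control and 9.52, 9.61 and 9.63 in Dnmt3b-KO, a 5-array rise of 0.59 ± 0.08 (limma, adjusted p = 0.0332). Both products pair with the product of Tlr2 to sense bacterial lipopeptides. Tlr2 itself measured 6.75 ± 0.17 in control and 6.76 and 6.52 on Dnmt3b-KO replicates 1 and 2, and 9.65 on replicate 3. Tlr7, which senses RNA, had a 5-array difference of 0.58 ± 0.10 (limma, adjusted p = 0.053) and measured 11.07 on Dnmt3b-KO replicate 3, against at most 6.92 elsewhere.

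Of the targets, Ebi3, a subunit of interleukin-27, rose by 0.66 ± 0.07 over 5 arrays (SE; limma, adjusted p = 0.0201) and measured 8.88 on Dnmt3b-KO replicate 3, below every control. With 1 of the 5 arrays left out, the adjusted p (limma) ran from 0.0328 to 0.159 for Tlr6, from 0.0515 to 0.2 for Tlr1 and from 0.0384 to 0.163 for Ebi3; the Tlr6 and Ebi3 calls held only without control replicate 2. Tnf, the classic activator, averaged 7.75 ± 0.24 over the controls (SD, n = 3) and measured 7.72 and 7.73 on Dnmt3b-KO replicates 1 and 2, and 11.80 on replicate 3. Tnfsf13b, which encodes BAFF, an activator of the slower branch, differed by 0.12 ± 0.05 over 5 arrays (limma, adjusted p = 0.373), with all 5 values below their array's highest background row.

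Between receptor and subunits, Birc3, a ubiquitin ligase that NF-kB also induces, had a 5-array difference of 0.32 ± 0.07 (SE; limma, adjusted p = 0.0877). It averaged 8.52 ± 0.06 over the controls (SD, n = 3) and measured 8.91, 8.79 and 9.82 in Dnmt3b-KO, with no overlap. Ikbke, a kinase related to the IKKs, measured 7.40 ± 0.03 in control and 7.66, 7.58 and 9.96 in Dnmt3b-KO. Card9, an adaptor for fungal receptors, differed on replicate 3 from the first Dnmt3b-KO arrays by -1.19. Among the other inhibitors, Zc3h12a, which encodes the RNase Regnase-1, had the smallest p. Its 5-array difference was 0.24 ± 0.06 (limma, adjusted p = 0.122), with no overlap over 6 arrays. Nfkbib, Nfkbid and Nfkbil1 of the same list had 5-array differences of -0.20, -0.22 and -0.09, while 11 of its 18 genes lay above 0. Map3k14, the kinase that starts processing of the Nfkb2 product, differed by 0.17 over 5 arrays (limma, adjusted p = 0.283); it was chosen for its place in the branch of Nfkb2 and Relb after its values were seen.

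Dnmt3b-KO replicate 3 was also set against replicates 1 and 2 for the lists. Differences above 1 were reached by 11 of 22 receptors, 15 of 39 targets, 3 of 11 ligands, 2 of 26 adaptors and kinases and 2 of 18 other inhibitors, with list medians of 1.04, 0.35, 0.18, -0.09 and 0.07. The share over all genes was 4.03%, and 16 of 28 macrophage markers did the same. Among the targets, Plau, which encodes urokinase, measured 13.37 there and at most 5.39 elsewhere. Ccl2, a monocyte chemokine, measured 10.64 and at most 5.03 elsewhere. Tlr13 measured 10.41 there and at most 6.25 elsewhere, and Tnip3, a partner of A20, 7.80 and at most 4.06. Of these genes Ccl2 and Tnip3 lay below the array's highest background row on the other 5 arrays, and Plau on 3 of them. Usp18 differed by 1.70. Vcam1, which is also one of the 28 macrophage markers, differed by -1.58.

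**Figure D4:**
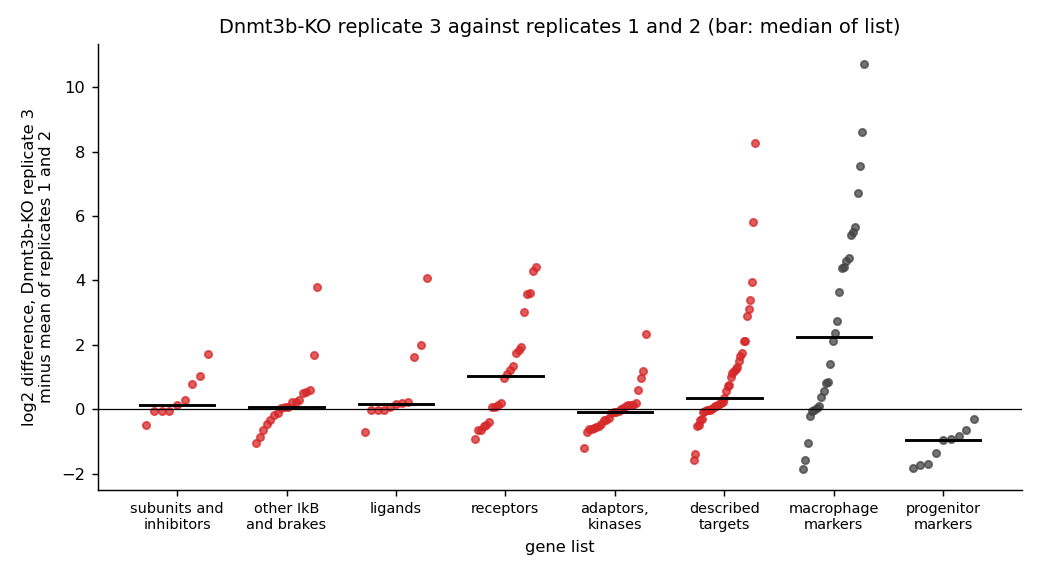
Difference in log2 signal between Dnmt3b-KO replicate 3 and the mean of replicates 1 and 2 for every measured gene of 8 lists (y axis), with points sorted within each list and a bar at its median. The NF-kB subunits and inhibitors reach from -0.48 to 1.73, receptors and described targets spread up to 4.43 and 8.27, and the macrophage markers have a median of 2.24.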

How the data were processed

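RNA from 6 samples was measured on Affymetrix mouse arrays, 3 control and 3 Dnmt3b-KO. Values were deposited by the authors on the log2 scale after RMA, per the submitters' processing notes, which give no version; no source used here gives the array's build. Deposited values reach 19.59, above the 16 of a scanner's range, so how the scale was made is not fully given in the sources used here, and differences are not converted to folds. The table holds 72688 rows; an older probe annotation named 30604 with exactly 1 symbol and 2146 with several, and 39938 (array controls included) had no name there. Symbols of 827 rows were updated by gene identifier. Depth does not apply to arrays, and their number limits the precision.

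Groups were compared with limma 3.58.1 in R 4.3.3 (lmFit, eBayes, Benjamini-Hochberg over all 30142 genes, threshold 0.05), without replicate pairing. The fits were tested on simulated data. Figures used matplotlib 3.10.9. The genes, lists, both comparisons and the tests were chosen with earlier results of these data known; the promoter motif and the counting of identical values once were chosen after seeing the data. All 9 genes were named. Each pathway list adds up to 2 genes per direction past the threshold over 5 arrays (those with the largest change and a group mean above the median gene), else the one with the smallest p, and up to 2 that differ most on Dnmt3b-KO replicate 3. Tlr2, Map3k14, Vcam1, Nfkbib, Nfkbid, Nfkbil1 and the marker genes were added after their values were seen. The other marker lists, for late neutrophils, B cells, T and NK cells, erythroid, dendritic and stromal cells, had median differences between Dnmt3b-KO replicate 3 and replicates 1 and 2 of -0.45, 0.04, 0.03, -0.09, 0.09 and 0.08. Alternatives were other normalizations, filters, variance models, array weights, the replicate block, row choice, thresholds and leaving out each array.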

Additional observations from a re-analysis of the deposited data

How the results depend on the processing

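Over 6 arrays 0 of the 9 genes passed in each setting run except array weights, which gave 1 (Rel, adjusted p = 0.0418, limma) with a weight of 0.112 for Dnmt3b-KO replicate 3, and leaving that array out (0 to 1 over the arrays left out). Over 5 arrays the 1 gene became 0 with the replicate block (Rel, adjusted p = 0.108), 0 without empirical Bayes (adjusted p = 0.201) and 0 with any 1 more array left out, where a single Dnmt3b-KO array takes its spread from the controls. The 4 genes without overlap became 3 with arrays centred, where Nfkbia overlapped, and 4 to 7 with 1 array left out. The 6-array median of 0.20 ran from 0.15 to 0.30 with 1 array left out; the 5-array median of 0.15 was 0.18 after repeated quantile normalization and 0.089 to 0.15 with 1 array left out. The 2 genes above 1 on Dnmt3b-KO replicate 3 became 1 after repeated quantile normalization, 1 with arrays centred, 3 above 0.5, and 1 to 2 with replicate 1 or 2 left out.

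No gene that had passed changed sign. Over 6 arrays the sign turned for Nfkbie with arrays centred (-0.0048) and for Nfkb2 (-0.085) and Relb (-0.044) with array weights. With 1 array left out the 6-array values ran from -0.14 to 0.098 for Rela, -0.043 to 0.047 for Nfkbie, -0.039 to 0.31 for Tnfaip3, -0.14 to 0.41 for Nfkb2 and -0.066 to 0.33 for Relb, and the 5-array values from -0.13 to 0.11 for Rela and -0.056 to 0.13 for Nfkbie. Rela over 5 arrays was 0.11 with the replicate block. The cause was not tested.

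Deviations of same-numbered arrays correlated at 0.126, 0.033 and 0.108, the highest value for each control. Dnmt3b-KO replicate 2 correlated better with control replicate 1, at 0.089. These small values do not settle whether the numbers mark pairs, and the main fits were run without pairing. With the replicate block limma called 0 genes over 6 arrays and 96 of all genes over 5, against 509 without it. Tlr1 and Ebi3 also missed the threshold with the block (adjusted p = 0.0649 and 0.0692), while Tlr6 passed (0.0377), and all 3 missed it without empirical Bayes. The settings for these 3 genes, and counting identical values once, were chosen after seeing the data. Counting identical values once left Rel at an adjusted p of 0.0302 over 5 arrays. Signal near the background rows limits Relb, Nfkb2, Bcl3 and Nfkbiz.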
